A study of Mus musculus with 24 samples.

Results

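Potassium channel genes were examined in the nucleus accumbens (NAc) of female and male C57BL/6 mice (C57BL/6J in the study's methods) after early-life stress. The members were the protein-coding genes whose mouse GENCODE symbol starts with Kcn and whose count, averaged over 24 libraries, was at least 10. This gave 79 genes of 94 protein-coding Kcn genes in the files and of 52636 gene rows in all. Just inside the minimum were Kcne4 and Kcnrg, with mean counts of 23.1 and 23.9, and just outside were Kcnn4 and Kcnk7, with 8.79 and 6.33. By their known roles the members were 28 pore-forming voltage-gated subunits (Kcna, Kcnb, Kcnc, Kcnd, Kcnh and Kcnq), 9 electrically silent voltage-gated subunits (Kcnf, Kcng, Kcns and Kcnv), 7 calcium- or sodium-activated channels (Kcnma, Kcnn, Kcnt and Kcnu), 12 inward rectifiers (Kcnj), 10 two-pore-domain channels (Kcnk) and 13 auxiliary genes (Kcnab, Kcne, Kcnip, Kcnmb and Kcnrg).

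The study compared control (Con) litters with litters whose pups were separated from dams that were stressed at unpredictable times (MSUS, labelled MS), from postnatal day 1 to 14. The labels give 2 hours of separation per day and the study's methods a longer time. Bilateral NAc was taken by tissue punch from 50-day-old mice before any behavioral testing. There was 1 library per animal, with 6 animals in each of the 4 groups of sex and stress. Whole litters were assigned to Con or MSUS. The litter of each animal was not known here, and the fits treated animals as independent. The labels also give an estrous cycle stage, but to only some of the females and to some of the males, so stage was not used here. The study's methods state that each female group held equal numbers of high- and low-estrogenic animals.

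Potassium channels let potassium leave the cell and so set the resting potential, shorten action potentials and limit firing. Most neurons of the NAc are medium spiny projection neurons, which are known for strong inward rectifier currents that hold them far from threshold and for A-type and delayed rectifier currents that delay the first spike. Voltage-gated channels open on depolarization, inward rectifiers hold the cell near the potassium equilibrium potential, two-pore-domain channels carry leak current, and calcium- or sodium-activated channels follow activity. The silent subunits form no channel alone and modify other voltage-gated channels.

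The libraries held 39923666 to 70575745 sense-strand counts in genes. The share of read pairs assigned to no gene was 31.0% to 34.8% in Con females and 36.3% to 43.9% in MSUS females, so these groups did not overlap, and 34.7% to 40.6% and 32.2% to 44.7% in Con and MSUS males. The striatal markers were present in every library, with a summed level of 10 projection neuron genes of 1659 to 4699 CPM. None of 10 markers of cortical excitatory neurons was at 0 in any library, and their summed level varied widely, from 260.3 to 1667 CPM (median 612.0) in Con females, 129.4 to 749.4 (median 215.6) in MSUS females, 164.3 to 1164 (median 340.3) in Con males and 174.4 to 1679 (median 368.1) in MSUS males. The summed level of 7 oligodendrocyte markers was 4038 to 6136 CPM in Con females and 3700 to 4506 CPM in MSUS females. That of 6 striatal interneuron markers was 194.31 to 284.75 CPM (median 220.4) in Con and 170.26 to 206.25 CPM (median 188.44) in MSUS females. For 6 astrocyte markers it was 5536.7 to 6138.4 CPM in Con and 5171.1 to 5793.2 CPM in MSUS females. The largest parts were Sst (means of 125.43 CPM in Con and 95.732 CPM in MSUS females) and Slc1a2 (5050.7 and 4605.7). Not every gene followed its sum. Means were 11.025 and 13.813 CPM for Chat (interneuron), 176.11 and 178.2 for Gja1 (astrocyte) and 64.258 and 65.864 for Cux2 (cortical). The other genes of these lists had lower means in MSUS females, by little for Aqp4 (80.167 and 79.262).

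The most abundant members included channels and partners known from medium spiny neurons. Levels between genes are given as CPM per kb of exon, averaged over the 24 libraries. Kcnj4, an inward rectifier of the strongly rectifying type, was highest at 76.7 CPM per kb, followed by Kcnip2, a calcium-binding partner of A-type channels, at 55.1, and Kcnab2, a beta subunit of Kcna channels, at 44.6. Among pore-forming voltage-gated genes the highest were Kcna1, a low-threshold axonal channel, at 40.7, and Kcnd2, which carries A-type current, at 38.9. Kcnj10, the inward rectifier of astrocytes, stood at 33.5, and Kcnj2, another strong rectifier, at 12.7. The 2 leading two-pore-domain genes were Kcnk1 at 25.6 and Kcnk2 at 23.2, while the next, Kcnk3, was at 3.88. Kcnt1, a sodium-activated channel, was at 22.2, and Kcnma1, the pore of the large-conductance calcium-activated (BK) channel, at 20.8. The lowest member was Kcnmb1, a BK beta subunit of smooth muscle, at 0.140.

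**Figure D1:**
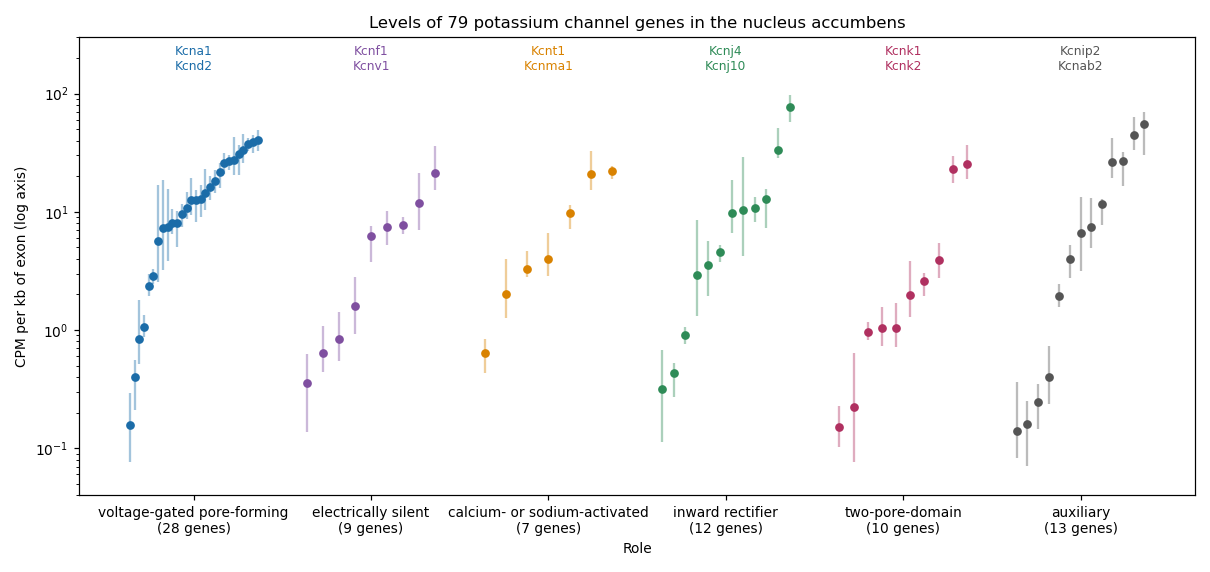
Mean level of each of the 79 genes over 24 libraries as CPM per kb of exon (y axis, log scale), grouped by role (x axis), with vertical lines from the lowest to the highest library and the names of the 2 highest genes of each role at the top. Kcnj4 was highest at 76.7 CPM per kb and Kcnmb1 lowest at 0.140.

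Summed per role, the voltage-gated pore-forming genes held 44.9% of the members' total CPM per kb, the auxiliary genes 19.2%, the inward rectifiers 17.2%, the calcium- or sodium-activated channels 6.48%, the two-pore-domain channels 6.26% and the silent subunits 5.95%. The makeup by role hardly moved between groups, and the voltage-gated share was 44.3% in Con females, 45.4% in MSUS females and 45.0% in both male groups. Among subfamilies the Kcna genes held 14.2%, the Kcnip genes 10.1%, the Kcnab genes 8.06%, the Kcnh genes 7.57%, and the Kcnd genes 5.36%.

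In females, the potassium channel genes that were called after MSUS were nearly all lower, by small amounts, and came from 12 of the 21 subfamilies. At an adjusted p under 0.10, 17 members were lower in MSUS than in Con females (21.5%, against 11.9% of all 20571 genes tested) and 1 was higher (1.27%, against 13.1%). In either direction 18 of 79 members were called (22.8%), which was close to the 25.1% of all genes. A fold change below 0 was measured for 58 members (73.4%, against 50.6% of all genes), the medians of 18 subfamilies were below 0, and the members' median log2 fold change was -0.22 against -0.0027 over all genes. Without adjustment 32 members had p under 0.05 (40.5%, against 32.7% of all genes). The lowest p-value among members belonged to Kcnj11, and the groups did not overlap for Kcnj11, Kcns1 and Kcnh8 (3.80% of members, against 3.60% of all genes in this direction).

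**Figure D2:**
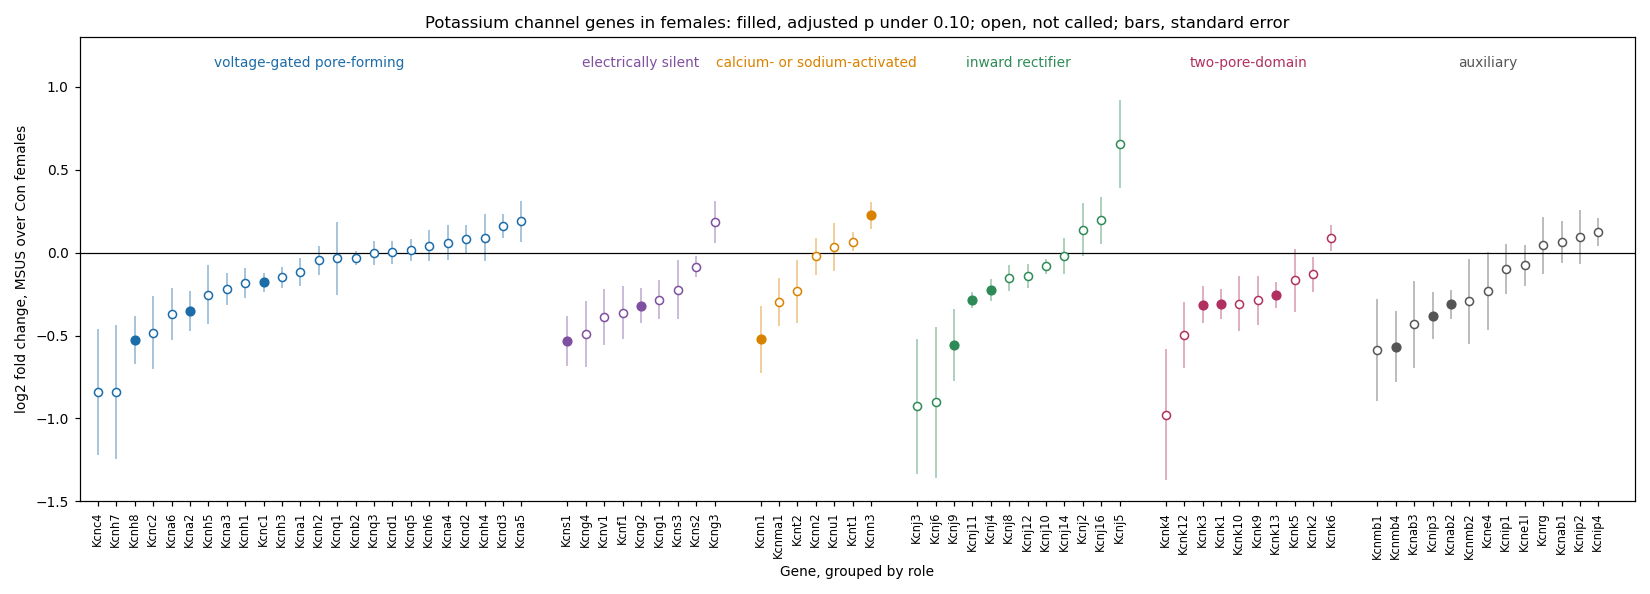
Log2 fold change of MSUS over Con females (y axis) with its standard error (bars) for 75 genes grouped by role (x axis), filled where the adjusted p was under 0.10. The 15 filled points below 0 are spread over all 6 roles, and Kcnn3 is the only filled point above 0.

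The calls depended on what else was in the model. With the no-gene share as a covariate, none of the 79 members and none of the 20571 genes tested was called (0%), and the members' median log2 fold change was -0.17. With the cortical marker score (the mean log2 CPM of the 10 cortical genes) as a covariate, only Kcnj11 was called (1.27% of members, against 3.3% of all genes lower and 5.36% higher) and the median was -0.052. Under that covariate the log2 fold changes of Kcnj9, Kcnmb4, Kcnn1, Kcnip3 and Kcnk3 lay near 0, at -0.053, -0.077, -0.049, -0.071 and -0.052, and that of Kcnn3 was 0.098. When the library with the highest cortical score was left out of each group, a choice made after the data were seen, 30 members were lower and 3 higher, against 13.3% of all genes in each direction. This did not even out the score, which still ran from 2.69 to 5.10 in the remaining Con females and from 0.304 to 3.32 in the remaining MSUS females. Leaving out 1 library at a time left 8 to 33 members lower, with 33 without MSUS female 1, 28 without Con female 4, 11 without Con female 2, 9 without MSUS female 3 or 4 and 8 without MSUS female 2 or 5. Over the same fits 6.66% to 14.0% of all genes were lower. Kcnj11, Kcns1, Kcnh8, Kcnj4, Kcnk13 and Kcnab2 kept their call in all 12 of these fits. Kcnk1 lost it only without MSUS female 2, Kcng2 without MSUS female 5 or 6, and Kcnc1 without MSUS female 2, 3, 4 or 5. Kcna2 lost it when any of those 4 libraries or Con female 2 was left out. Kcnmb4, Kcnj9, Kcnn1 and Kcnk3 lost it when any single library among Con females 1 to 3 and MSUS females 2 to 6 was left out. The same held for Kcnip3, also without Con female 5, and Kcnn3 lost its call without any single library among Con females 1, 2, 4 and 6 and MSUS females 2 to 6. The share in no gene did not overlap between the female groups, so its part and that of MSUS cannot be told apart, and in bulk tissue fewer cells of a type cannot be told apart from less RNA per cell.

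Promoter sequences are shown for the 2 members without overlap between the female groups that RefSeq's promoter table held, Kcns1 and Kcnh8, and for Kcnn3, the member that was higher. They are the 250 bases before the gene's start in build GRCm38.p6, written 5′ to 3′ on the gene's strand, with the GC-box core GGGCGG, on either strand, in capitals. Kcns1 lies on the minus strand at chr2:164171114-164171363, Kcnh8 on the plus strand at chr17:52602459-52602708 and Kcnn3 on the plus strand at chr3:89519914-89520163.
Kcns1: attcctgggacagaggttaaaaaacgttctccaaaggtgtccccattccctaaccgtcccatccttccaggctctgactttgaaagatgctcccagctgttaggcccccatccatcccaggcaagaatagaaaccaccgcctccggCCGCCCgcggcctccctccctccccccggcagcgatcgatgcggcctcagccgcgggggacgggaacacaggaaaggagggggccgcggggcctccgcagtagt
Kcnh8: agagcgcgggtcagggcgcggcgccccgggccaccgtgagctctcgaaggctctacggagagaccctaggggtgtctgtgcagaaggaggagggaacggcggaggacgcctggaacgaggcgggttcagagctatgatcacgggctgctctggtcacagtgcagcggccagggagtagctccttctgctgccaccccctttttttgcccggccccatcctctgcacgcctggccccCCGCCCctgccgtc
Kcnn3: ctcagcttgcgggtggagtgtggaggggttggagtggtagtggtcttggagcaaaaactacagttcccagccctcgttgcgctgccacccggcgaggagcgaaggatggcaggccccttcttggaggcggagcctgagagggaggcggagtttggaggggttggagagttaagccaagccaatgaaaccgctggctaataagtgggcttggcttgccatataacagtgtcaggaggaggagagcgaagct
The core was found once before Kcns1, once before Kcnh8 and not before Kcnn3. Their GC content was 63.2%, 68.4% and 58.8%. The table held 79 promoters of 56 members, of which 46.8% had the core, against 32.7% of all 32851 promoters. Of the 13 called members in the table, 8 had it in at least 1 promoter. This count is per gene, so it cannot be set against the shares per promoter, and a link between the core and the fold changes was not tested.

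Among the 28 voltage-gated pore-forming genes, 5 were lower in MSUS females and none higher, against 11.9% and 13.1% of all genes. Their median log2 fold change was -0.13. The few calls in each role were not tested against the share over all genes. Kcna2, an axonal channel that pairs with Kcna1, ranged from 296.3 to 515.8 CPM (median 345.0) and from 260.2 to 353.4 CPM (median 270.2), with a log2 fold change of -0.35 (SE 0.12, adjusted p = 0.0678). Kcna1 itself was not called, at -0.12 (adjusted p = 0.371). Kcnc1, of the channels that speed repolarization in fast-spiking neurons, was lower by -0.18 (adjusted p = 0.0540). Kcnc2 and Kcnc4 had larger fold changes of -0.48 and -0.84 that missed the threshold with standard errors of 0.22 and 0.38.

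Kcnh8, of the ether-à-go-go-like channels, was a low-abundance member at 0.400 CPM per kb. Its level was 1.68 to 2.40 CPM (median 1.71) in Con females, 0.964 to 1.67 CPM (median 1.28) in MSUS females, 1.47 to 2.34 CPM (median 2.07) in Con males and 2.00 to 2.56 CPM (median 2.05) in MSUS males. MSUS females lay below Con females and below MSUS males without overlap. In females the log2 fold change was -0.53 (SE 0.14, adjusted p = 0.0284). The other 7 Kcnh genes were not called, among them Kcnh3, at -0.15, and Kcnh7, at -0.84 with a standard error of 0.40.

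Several M-current and A-type current genes stood near 0. The female log2 fold changes of Kcnq3 and Kcnq5, which carry M-current, were -0.0021 and 0.02 (SE 0.08 and 0.07), and neither was called. All 3 Kcnd genes had fold changes above 0, of 0.0020 for Kcnd1, 0.08 for Kcnd2 and 0.16 for Kcnd3, and none was called. Under alternatives Kcnd3 was called higher with the replicate block (0.17, adjusted p = 0.0962) and without the highest cortical library of each group (0.22, adjusted p = 0.0292). The Kcnd partners Kcnip2 and Kcnip4, at 0.09 and 0.12, were not called.

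Of the 9 silent subunits, 2 were lower and none higher, against 11.9% and 13.1% of all genes. Their fold changes had a median of -0.32, and 8 of the 9 were below 0, against 50.6% of all genes. Kcns1, known from sensory and cortical neurons, was at 3.90 to 7.61 CPM (median 4.87) in Con females and at 3.25 to 3.83 CPM (median 3.66) in MSUS females. It lay at 3.15 to 5.47 CPM (median 3.85) in Con males and at 2.53 to 7.57 CPM (median 4.04) in MSUS males, so MSUS females differed from Con females without overlap but lay within the range of both male groups. Its log2 fold change in females was -0.53 (SE 0.15, adjusted p = 0.0311). Kcng2 was lower by -0.32 (adjusted p = 0.0542) at 1.88 to 2.63 CPM against 2.33 to 2.92 CPM. The most abundant silent subunits, Kcnf1 (-0.36, adjusted p = 0.136) and Kcnv1 (-0.39, adjusted p = 0.131), were not called, and Kcns2 stood at -0.08.

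The small-conductance calcium-activated (SK) genes, which shape the afterhyperpolarization, went both ways. Kcnn3, the most abundant of them at 9.82 CPM per kb, was at 75.4 to 118.5 CPM (median 99.2) in Con females and at 102.6 to 119.9 CPM (median 113.7) in MSUS females. All 6 MSUS libraries lay above the Con median, the groups overlapped, and the log2 fold change was 0.22 (SE 0.08, adjusted p = 0.0841). In males Kcnn3 ranged from 85.1 to 118.7 CPM in Con and from 76.5 to 112.5 CPM in MSUS animals. Kcnn1, scarcer at 2.00 CPM per kb, was lower in MSUS females by -0.52 (SE 0.20, adjusted p = 0.0959), at 5.85 to 10.5 CPM against 7.73 to 18.2 CPM. Kcnn2 stood at -0.02. Of the larger channels, Kcnma1 was not called at -0.30 (adjusted p = 0.170) and Kcnt1 was not called at 0.07 (adjusted p = 0.446).

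Among the 12 inward rectifiers 3 were lower and none higher, against 11.9% and 13.1% of all genes. The 3 fell 1 each in the strongly rectifying, G-protein-gated and ATP-sensitive groups. Kcnj11, the pore of the neuronal ATP-sensitive channel that couples metabolism to excitability, lies at chr7:46093953-46100764. It was at 40.4 to 48.9 CPM (median 43.6) in Con females and at 32.1 to 37.8 CPM (median 35.7) in MSUS females, with no overlap. Con males were at 32.9 to 43.4 CPM (median 41.2) and MSUS males at 30.4 to 44.9 CPM (median 39.1), which overlapped widely. The log2 fold change in females was -0.29 (SE 0.05, adjusted p = 0.00459). It was -0.26 with the cortical score as a covariate (adjusted p = 0.0391) and -0.29 without the highest cortical library of each group (adjusted p = 0.00722), but was not called with the share in no gene (-0.25, adjusted p = 0.760).

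Abcc8, which encodes the sulfonylurea receptor that assembles with Kcnj11, lies 3758 bases from it on chromosome 7 and was also lower in MSUS females. It was at 20.8 to 27.1 CPM (median 23.3) in Con and at 15.2 to 21.6 CPM (median 18.7) in MSUS females, with a log2 fold change of -0.33 (SE 0.08, adjusted p = 0.0196). The vascular pair of this channel, Kcnj8 and Abcc9, lie 16247 bases apart on chromosome 6. Abcc9 was lower by -0.14 (adjusted p = 0.0660), and Kcnj8 was not called at -0.15 (adjusted p = 0.187).

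Kcnj4, the most abundant member, was at 161.6 to 208.5 CPM (median 184.1) in Con females and at 140.6 to 168.3 CPM (median 160.9) in MSUS females, a log2 fold change of -0.22 (SE 0.07, adjusted p = 0.0378). All MSUS libraries lay below the Con median. Kcnj2, also of the strongly rectifying type, was not called at 0.14 (SE 0.16), and Kcnj12 was not called at -0.14 (SE 0.07). The astrocytic Kcnj10 was not called at -0.08 (adjusted p = 0.227), nor was its partner Kcnj16 at 0.20.

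The G-protein-gated (GIRK) genes, which mediate slow inhibition by metabotropic receptors, were among the members that varied most between libraries. Kcnj9 was at 35.8 to 79.2 CPM in Con and at 28.5 to 46.4 CPM in MSUS females, and was lower by -0.56 (SE 0.22, adjusted p = 0.0983). Kcnj3 (-0.93, SE 0.41, adjusted p = 0.138) and Kcnj6 (-0.90, SE 0.46, adjusted p = 0.193) had larger fold changes that were not called. Kcnj5, the scarcest GIRK gene at 0.319 CPM per kb, stood at 0.66 (SE 0.27, adjusted p = 0.109). Kcnj9 and Kcnj10 lie 11891 bases apart on chromosome 1, and the difference between their fold changes was not tested.

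Of the 10 two-pore-domain genes 3 were lower and none higher, against 11.9% and 13.1% of all genes. Their fold changes had a median of -0.30, and 9 of the 10 were below 0, against 50.6% of all genes. Kcnk1 was at 55.5 to 80.7 CPM (median 62.3) in Con and at 45.7 to 62.8 CPM (median 50.3) in MSUS females, with a log2 fold change of -0.31 (SE 0.09, adjusted p = 0.0395). Kcnk3, an acid-sensitive leak channel, was lower by -0.31 (adjusted p = 0.0717) and Kcnk13, a leak channel known from microglia, by -0.25 (adjusted p = 0.0408). Kcnk13 was at 7.41 to 9.47 CPM in Con and at 6.06 to 7.78 CPM in MSUS females, while the summed level of 6 microglial markers was 194.8 to 211.2 CPM and 178.8 to 216.2 CPM. Kcnk2, a mechanosensitive leak channel, was not called at -0.13 (SE 0.11). Kcnk4, another of that type, had the largest fold change of all members, -0.98, but with a standard error of 0.39 it was not called (adjusted p = 0.107). Its exons share bases with Catsperz on the same strand.

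Of the 13 auxiliary genes 3 were lower and none higher, against 11.9% and 13.1% of all genes. Kcnab2 was at 235.7 to 356.1 CPM (median 271.0) in Con and at 201.6 to 260.7 CPM (median 219.3) in MSUS females, with a log2 fold change of -0.31 (SE 0.09, adjusted p = 0.0337), whereas its relative Kcnab1 was not called at 0.06. Part of the exons of Kcnab2 is shared with a predicted gene on the same strand. Kcnip3, a calcium sensor that binds A-type channels and also acts on transcription, was lower by -0.38 (adjusted p = 0.0841). Kcnmb4, the neuronal BK beta subunit, was lower by -0.57 (SE 0.21, adjusted p = 0.0914), at 16.4 to 27.1 CPM against 20.2 to 43.0 CPM.

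Partner proteins that do not carry a Kcn symbol were read from a list of 22 genes, of which 20 were tested. Outside the comparison of MSUS with Con females none was called, where at most 2.64% of all genes were. In MSUS females 5 were lower and none higher, against 11.9% and 13.1% of all genes, and 25.1% in either direction. Besides Abcc8 and Abcc9 these were Amigo1, an adhesion protein that associates with voltage-gated potassium channels, at -0.24 (adjusted p = 0.0437), Cntn2, which helps place Kcna channels along axons, at -0.39 (adjusted p = 0.0975), and Hcn2, a cation channel opened by hyperpolarization, at -0.26 (SE 0.05, adjusted p = 0.00752). Hcn2 was at 116.3 to 142.1 CPM in Con and at 100.6 to 116.2 CPM in MSUS females. The A-type partners Dpp6 and Dpp10, at 0.05 and -0.00025, were not called.

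**Figure D3:**
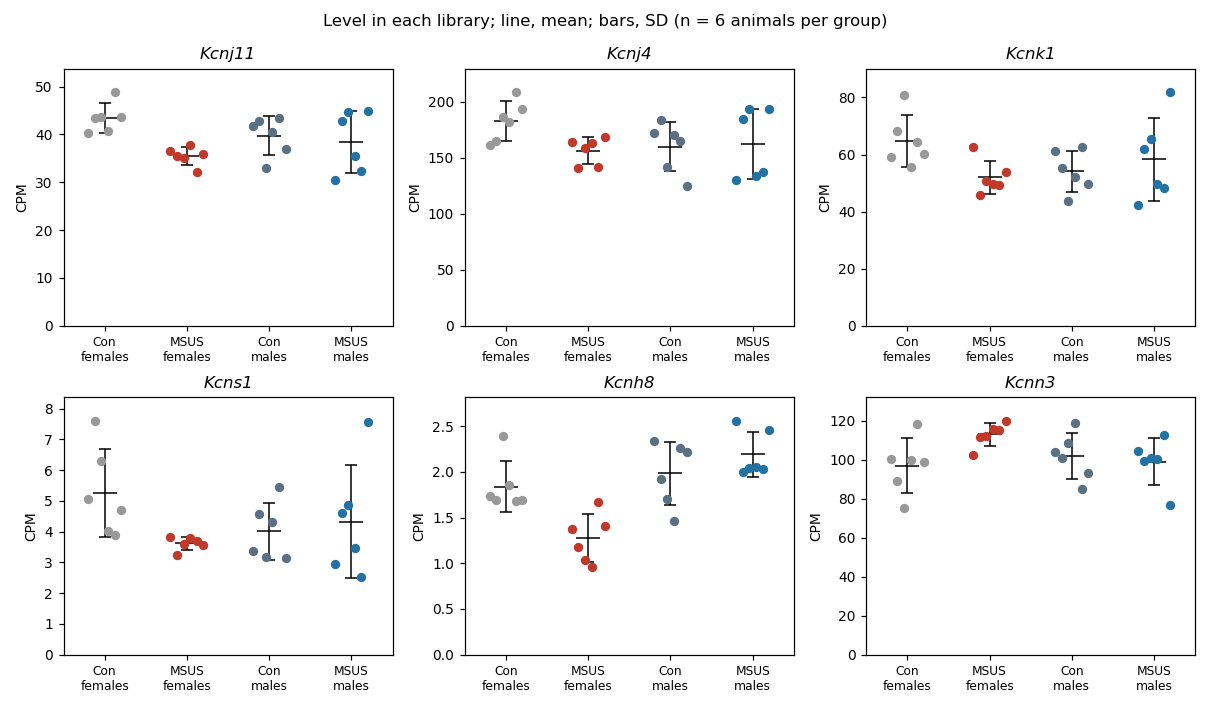
Level in CPM (y axis, from 0) of 6 members in each library of the 4 groups (x axis), with the group mean (line) and SD (bars, n = 6 animals). MSUS females lie below Con females without overlap for Kcnj11, Kcns1 and Kcnh8, with overlap for Kcnj4 and Kcnk1, and higher with overlap for Kcnn3.

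The members differed widely in how far single libraries stood apart. From the lowest to the highest of the 24 libraries the level changed more than 2-fold for 38 members, more than 5-fold for 6 and less than 1.5-fold for 10, with a median of 1.96-fold against 1.45-fold over 14976 protein-coding genes. The 6 most variable were Kcnk4 (8.44-fold), Kcnj3 (6.88-fold), Kcnh7 (6.72-fold), Kcnj6 (6.52-fold), Kcnj5 (6.01-fold) and Kcnc4 (5.78-fold). Kcnj3 was at 31.9 to 152.2 CPM in Con females, 22.1 to 73.7 in MSUS females, 24.4 to 97.4 in Con males and 27.8 to 150.5 in MSUS males. In each group its highest library was the one with the highest cortical marker score, namely Con female 3, MSUS female 1, Con male 5 and MSUS male 6. Those 4 libraries were the highest of their group for 40, 40, 37 and 40 of the 79 members, against 29.6%, 24.1%, 25.1% and 28.3% of 21500 genes tested. They were the lowest of their group for 18, 17, 12 and 13 members, against 24.7%, 23.8%, 22.3% and 24.9% of all genes, and Kcnip2 and Kcnn3 were among them in all 4 groups. With the cortical score as a covariate the female log2 fold changes of Kcnj6 and Kcnc4 were 0.23 and 0.07. The part of cortical tissue in the female differences was not tested beyond the fit with the score. Leaving these libraries out did not even out the score between the female groups.

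**Figure D4:**
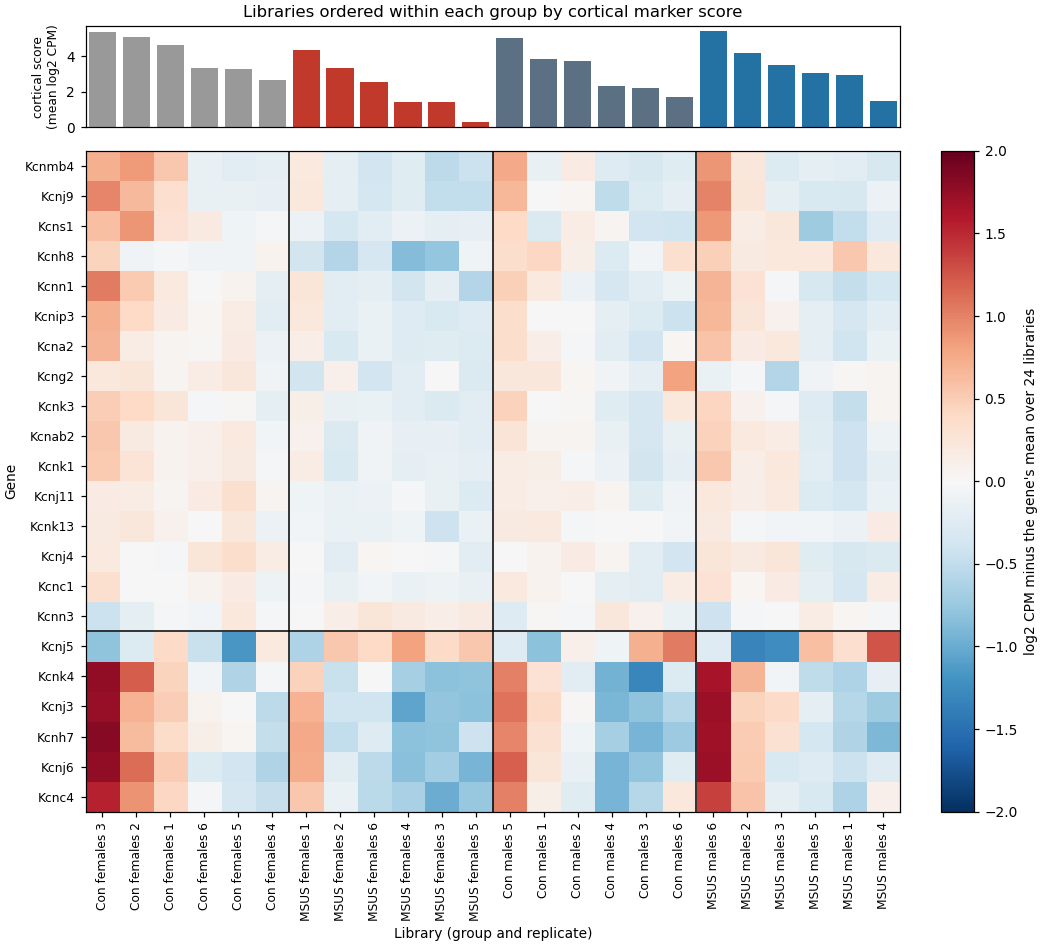
Log2 CPM of 16 called members and, below the line, the 6 most variable members (rows), each minus its mean over 24 libraries (colour), by library (columns) ordered within each group by the cortical marker score drawn as bars (mean log2 CPM of 10 genes). The 5 most variable members other than Kcnj5 are highest at the left of each group, and Kcnj11 is lower in all 6 MSUS females than in all 6 Con females.

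In males no member was called, and no gene of the 20691 tested was (0%). DESeq2 called no member either. Only 1 member, Kcnmb1, had an unadjusted p under 0.05 (1.27%, against 0.923% of all genes), with a log2 fold change of -0.43 (SE 0.15). The median log2 fold change was 0.04, with 49 members above 0 (62.0%, against 51.7% of all genes). Of the genes that were lower in MSUS females, Kcnj11 stood at -0.05 (SE 0.11), Kcns1 at 0.11 (SE 0.25) and Kcnh8 at 0.14 (SE 0.13) in males. Kcng2 stood at -0.32 in both sexes, with an adjusted p of 1.00 in males. The male values of Kcnj11 and Kcns1 average over opposite differences in the libraries numbered 1 to 12 and 13 to 24. Each set held 3 animals per group. Of the 18 members called in females, 16 had male differences of opposite sign in the 2 sets, as did 61 of the 79 members (77.2%, against 70.6% of all genes tested), and 15 of those 16 were below 0 in the first set and above 0 in the second. Mean log2(CPM + 0.5) in MSUS minus Con males was -0.39 and 0.59 for Kcnj9, -0.40 and 0.37 for Kcnn1, -0.17 and 0.44 for Kcnip3, and -0.14 and 0.029 for Kcnj11. Kcnn3 went the other way, at 0.10 and -0.18, while Kcng2 (-0.24 and -0.25) and Kcnh8 (0.063 and 0.18) had 1 sign in both. The male libraries with the highest cortical scores were Con male 5 (5.05), in the first set, and MSUS male 6 (5.46), in the second. For Kcnj9 they stood at 63.63 and 80.33 CPM, against 28.43 to 41.35 in the other Con and 32.36 to 47.63 in the other MSUS males. The part of these 2 libraries in the opposite signs was not tested. In females none of the 18 called members changed sign between the sets, but they were called on these same libraries, so this is no separate support. Of all members 15 changed sign in females (19%, against 23.9% of all genes tested).

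**Figure D5:**
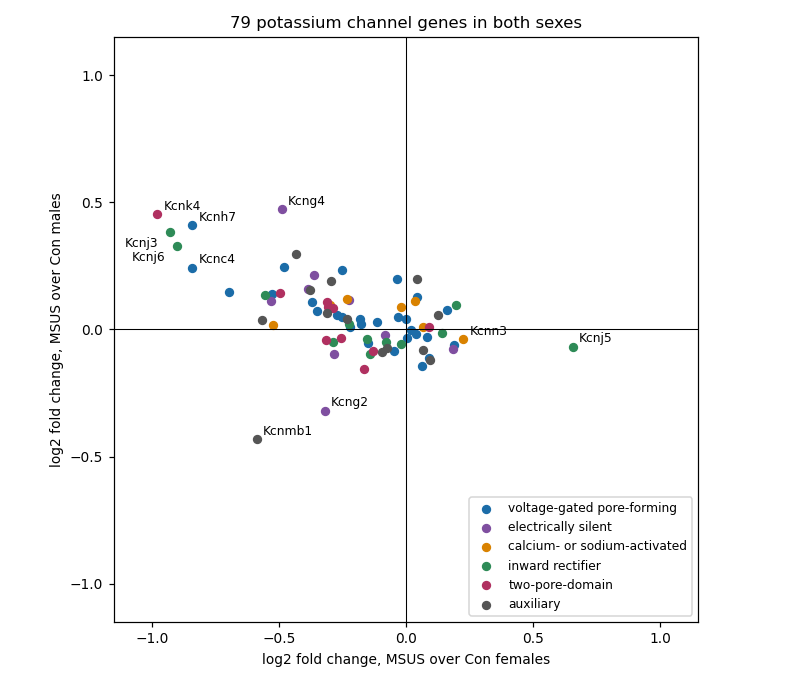
Log2 fold change of MSUS over Con in females (x axis) and in males (y axis) for 79 genes coloured by role. Most points lie left of 0, where 58 members had female fold changes below 0, and all lie within 0.5 of 0 on the male axis.

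Between the sexes in Con animals no member was called (2.64% of 20641 genes were), and DESeq2 called none. Without adjustment 4 members had p under 0.05 (5.06%, against 17.8% of all genes). The median log2 fold change of female over male was 0.12, with 60 members above 0 (75.9%, against 53.6% of all genes). The lowest p-values were those of Kcnh3, at 0.23 (SE 0.08, adjusted p = 0.158), and Kcnk1, at 0.27 (SE 0.10, adjusted p = 0.200). Kcnh3 was at 92.4 to 115.4 CPM in Con females and at 73.2 to 100.4 CPM in Con males. Kcnd1 and Kcne1l, the 2 X-linked members, stood at 0.07 and 0.00084.

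Between MSUS females and MSUS males 1 member was called, Kcnh8 (1.27%, against 0.135% of 20714 genes). It was lower in females by a log2 fold change of -0.78 (SE 0.14, adjusted p = 0.0540), again without overlap (0.43% of all genes did not overlap in this direction). Without adjustment 7 members had p under 0.05 (8.86%, against 7.29% of all genes), and 54 fold changes were below 0 (68.4%, against 51.3%). This call was lost with the cortical score as a covariate, and it was also lost when any 1 library other than MSUS female 5 or MSUS male 1 was left out. Kcng4, another low-abundance member, stood at -0.65 (adjusted p = 0.603).

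The interaction of MSUS and sex asks whether the MSUS difference itself differed between females and males. No member was called, and no gene of the 21500 tested was (0%). Without adjustment 10 members had p under 0.05 (12.7%, against 18.7% of all genes), and all 10 had a more negative MSUS difference in females, as did 59 of the 79 members (74.7%, against 50.9% of all genes). Among them were Kcnh8 (-0.67, adjusted p = 0.200), Kcng4 (-0.97), Kcnk4 (-1.44), Kcns1 (-0.65), Kcnf1 (-0.58), Kcnip3 (-0.54), Kcnk1 (-0.42), Kcnab2 (-0.38) and Kcnk13 (-0.23). DESeq2 called Kcnh8 alone among members, against 0.5% of all genes below 0 and 1.72% above. Without MSUS male 1 edgeR called 5 members, Kcnh8, Kcnab2, Kcng4, Kcnj11 and Kcnk1, all below 0, against 5.72% of all genes below 0 and 8.3% above. The difference for Kcnj11 was -0.24 (SE 0.12, adjusted p = 0.277).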

How the data were processed

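Total RNA from NAc was depleted of ribosomal RNA and sequenced as 100 bp read pairs, and the authors aligned the pairs to mm10 (STAR 2.6.1b, per the labels) with GENCODE M15 genes. The deposited values are counts of read pairs per gene in 1 file per animal, with unstranded, sense and antisense columns, of which the sense column was used. The 4 rows naming no gene were kept out of library sizes. Gene types, exon lengths and coordinates came from GENCODE M21 (GRCm38, the same build as mm10), which matched 52489 of 52636 gene IDs.

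Each comparison was fitted over all genes passing filterByExpr (minimum count 10) with edgeR 4.0.16 (TMM factors, robust quasi-likelihood F test, Benjamini-Hochberg adjustment, threshold 0.10), on the 12 libraries compared, or on 24 for the interaction. All 79 members passed the filter in every comparison. The study used DESeq2 at the same threshold, with estrous cycle status in its female model. DESeq2 1.42.0 was run as an alternative without that term. CPM used the TMM sizes of 24 libraries. Libraries held 39923666 to 70575745 counts. Each SE is that of a fitted log2 fold change, taken from the fold change and its F statistic. SD bars show the spread between animals. The fits were tested on simulated data.

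Genes named were the 3 highest per length in each role, up to 8 rises and 8 falls in females among called genes with a mean of at least 100 counts, and the 2 lowest p-values in each other comparison. Kcnj11, Kcnk13, Kcnc1, Kcnj3, Kcnj5, Kcnj6, Kcnj8, Kcnk4, Kcnh7, Kcnc4 and others given without full statistics were chosen after their values were seen. A few members count in the totals but are not reported here. The members and lists were chosen with earlier results of these data known. Alternatives were DESeq2, its size factors, no count filter, unstranded counts, a replicate block, the library set (libraries 1 to 12 and 13 to 24), covariates, a fit of all 24 libraries, a threshold of 0.05 and leaving out libraries. Labels call the samples biological replicates, 1 animal each.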

Additional observations from a re-analysis of the deposited data

Results flagged for a closer look

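Of 184 groups of 6 libraries screened over 46 named genes, 35 had a highest or lowest library far from the others by Dixon's test. By chance the test flags about 1 in 20 of all groups screened, if values are normally distributed. The genes share the same libraries, so the flags are not independent of each other. Most flags fell on the library with the highest cortical marker score of its group.

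In Con female 3 the level stood above the others for Kcnma1 (555.9 CPM), Kcna2 (515.8), Kcnh7 (258.9), Kcnj3 (152.2), Amigo1 (109.4) and Kcnh8 (2.398), and below them for Kcnab1 (142.5) and Kcnj8 (2.129). In MSUS female 1 it stood above for Kcnma1 (420.1 CPM), Kcna2 (353.4), Kcnh7 (123.4), Kcnip3 (107.1), Kcnj3 (73.68), Kcnv1 (69.51), Kcnj6 (31.73) and Kcnk3 (16.51), and below for Kcnip2 (164.8). In Con male 5 it stood above for Cntn2 (226.2 CPM), Kcnj9 (63.63), Kcnj6 (43.55) and Kcnmb4 (40.04). In MSUS male 6 it stood above for Kcnh7 (236.2 CPM), Kcnj3 (150.5), Kcnv1 (97.3), Kcnj9 (80.33), Kcnj6 (62.08) and Kcnmb4 (43.76), and below for Kcnip2 (112.2) and Kcnn3 (76.51).

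The remaining flags lay elsewhere. Con male 6, which has the lowest cortical score of its group, was high for Kcnj10 (278.1 CPM) and Kcng2 (4.276) and low for Kcnj8 (2.1). Con female 2 was high for Kcnmb1 (1.525 CPM), MSUS male 3 low for Kcng2 (1.637) and MSUS female 3 low for Kcnk13 (6.064).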

How the results depend on the processing

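In females, the 17 lower and 1 higher members became 27 and 2 with DESeq2 (against 13.2% and 12.6% of all genes), 10 and 0 without the count filter (4.51% and 5.56%), 23 and 2 with unstranded counts (13.9% and 15.2%), 6 and 0 in the fit of all 24 libraries (8.63% and 10.4%), 8 and 0 at an adjusted p under 0.05 (6.81% and 8.39%), 0 and 0 with the share in no gene as a covariate (0% of all genes), 1 and 0 with the cortical score (3.3% and 5.36%), and 30 and 3 without the highest cortical library of each group (13.3% each). With DESeq2's size factors or the library set as a term the counts were again 17 and 1 (11.9% and 11.8% of all genes lower), but with the library set Kcnmb4 and Kcnj9 lost and Kcng4 and Kcnk12 gained a call. Within libraries 1 to 12 and within libraries 13 to 24, all 18 called members kept their sign in females, on whose libraries they were called. In females 19% of all members and 23.9% of all genes changed sign. In males 16 of the 18 had opposite signs in the sets, as did 70.6% of all genes. Leaving out 1 library gave 8 to 33 lower and 0 to 2 higher members (6.66% to 14.0% and 8.31% to 13.7% of all genes). In the comparison of MSUS females with MSUS males the 1 lower member became 0 with the cortical score, without the highest cortical libraries and at an adjusted p under 0.05, and 0 to 1 when 1 library was left out (0.0479% to 0.22% of all genes lower). For the interaction, 0 lower members became 1 with DESeq2 (0.5% of all genes) and 0 to 5 when 1 library was left out, with 5 only without MSUS male 1 (5.72%). In males and between the sexes in Con animals no member was called under any alternative, including DESeq2. No called gene changed direction, but with the cortical score as a covariate the uncalled Kcnma1, Kcnv1, Kcna1, Kcnj6 and Kcnc4 went above 0 and Kcnip2, Kcnab1, Kcnt1, Kcnj2 and Kcnd2 below it, and Kcns2 went above 0 with the share in no gene. Kcnip2 and Kcnab1 also went below 0 without Con female 3, and Kcnab1 without the highest cortical libraries. The cause of these changes was not tested.

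The main fits did not pair samples by replicate number. The correlations of same-numbered females ran from -0.245 to 0.252, and 3 of 6 exceeded 0.1. Such correlations cannot exclude a shared litter or preparation, so whether the numbers mark pairs is not known. With the replicate block 14 members were lower and 2 higher in females (8.01% and 10.5% of all genes), and 0 were called between MSUS females and MSUS males.

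The scarce members Kcnk4, Kcnmb1 and Kcnh8 had mean counts of 54.1, 31.5 and 97.3.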
